A study of Mus musculus with 18 samples.

Results

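Transcripts of 8 Snf2-like ATPase genes that lie outside the ISWI, SWI/SNF and CHD classes of chromatin remodellers were followed in mouse embryonic stem (ES) cells with and without Snf2h. The genes, Ino80, Srcap, Ep400, Atrx, Hells, Smarcad1, Ercc6 and Rad54l, were taken by symbol from a table of 24116 genes, and each of the 8 symbols matched 1 gene. RNA was sequenced in 18 libraries of ES cells of the 129S6/SvEvTac strain, maintained in serum with LIF. The groups were wild type (n = 8), Snf2h ko (n = 5), Snf2h ko cells to which wild-type Snf2h had been returned (wild-type add-back, n = 3), and Snf2h ko cells that re-expressed an ATPase-mutant Snf2h (mutant add-back, n = 2, numbered 1 and 3). Snf2h, the product of Smarca5, is the catalytic subunit of ISWI complexes, which slide and space nucleosomes. Both add-back groups carry the ko as well. Per the labels, wild-type and wild-type add-back cells grew on gelatin, while ko and mutant add-back lines spent at least their first passages after thawing on fibroblast feeders. Time on feeders thus went with the lack of wild-type Snf2h, and their parts in the differences below cannot be told apart. The sources used here do not give the number of clones behind each group or the promoter that drives the returned Snf2h. The labels speak of biological replicates but do not say that each library came from a separate culture, so the p-values measure the spread between these libraries, which may in part be technical.

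Snf2-like ATPases use ATP to pull on DNA, and depending on the family member this slides a nucleosome, swaps a histone within it or strips another protein from the DNA. INO80 moves nucleosomes and acts on those that hold the histone variant H2A.Z, whereas SRCAP and EP400, the mammalian relatives of yeast SWR1, place H2A.Z in chromatin, EP400 doing so inside the TIP60 acetyltransferase complex. ATRX loads the variant histone H3.3 at telomeres and silent repeats together with DAXX, HELLS is needed for DNA methylation of repeats and is activated by CDCA7, and SMARCAD1 works with TRIM28 in heterochromatin. ERCC6 (CSB) acts on stalled RNA polymerase in transcription-coupled repair, and RAD54L acts in homologous recombination. INO80 and the TIP60-EP400 complex are known for their roles in the self-renewal of ES cells.

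Smarca5 read 139.7 to 215.5 CPM (counts scaled to the size of the library) in wild type and 8.72 to 10.1 in ko. It read 83.8 to 90.2 in the wild-type add-back, and 48.4 and 68.6 in the mutant add-back. Its level thus followed the labels of wild type, ko and add-back. A count per gene does not tell wild-type from ATPase-mutant Snf2h, so the labels of the add-backs were not checked against each other. Library totals lay between 15.3 and 37.0 M counts. They fell into 3 depth tiers: 11 libraries under 20 M (wild type 6 to 8, ko 3 to 5 and all add-backs), 4 between 20 and 28 M (wild type 1 and 2, ko 1 and 2) and 3 deeper wild-type libraries (3 to 5). Wild-type or ko replicates of the same low or middle tier differed by 1.44 to 2.50 times sampling noise (chi-square per gene), against 30.8 to 67.9 times between tiers. The deep wild-type libraries differed from each other by 15.8 to 40.6 times sampling noise and the pair of mutant add-back libraries by 13.0 times. For the wild-type add-back it was 2.00 times between replicates 1 and 2, 4.25 between 1 and 3, and 6.22 between 2 and 3. Ko against wild type is therefore also given within the low and the middle tier. The lowest group mean of any of 12 ES cell markers was 215 CPM. Of 20 tested fibroblast markers, 16 were called higher and 3 lower in ko than in wild type. Col1a1, a collagen gene, averaged 4.60 CPM in wild type, 15.8 in ko, 1.94 in the wild-type add-back and 9.32 in the mutant add-back, and Fbln2, a matrix gene, 2.57, 28.5, 1.04 and 17.3 CPM. The summed level of the list of 22 was 1338 to 1413 CPM in ko against 1025 to 2442 in wild type, 1307 to 1587 in the wild-type add-back and 947 and 1224 in the mutant add-back. The list held 19 markers with a mean of at least 1 CPM in ko, 18 in the mutant add-back, 13 in wild type and 11 in the wild-type add-back. Most of the sum was Fn1, a matrix gene that averaged 1465 CPM in wild type, 943 in ko, 1242 in the wild-type add-back and 597 in the mutant add-back and was 1 of the 3 called lower. Lum was at 0 in every ko and mutant add-back library, and Postn in every wild-type add-back library. The part of such cells in the results below was not tested, and in these bulk samples fewer cells of a type and less RNA per cell cannot be told apart.

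The 8 genes lie on 8 different chromosomes of GRCm38 (RefSeq spans): Ino80 at chr2:119373042-119478685, Srcap at chr7:127511983-127561219, Ep400 at chr5:110664373-110770927, Atrx at chrX:105797615-105929372, Hells at chr19:38930262-38970470, Smarcad1 at chr6:65042591-65116061, Ercc6 at chr14:32513291-32580990 and Rad54l at chr4:116094261-116123700. Ino80, Ep400, Atrx and Rad54l are on the minus strand. In the GENCODE annotation 65.0% of the exonic bases of Srcap also belong to Gm42715 (9738 bases on the same strand) or to antisense genes, and 15.4% of those of Rad54l lie opposite exons of Lrrc41 (1184 bases). The libraries were stranded, but no source used here gives the strand setting of the count, so reads of Rad54l and Lrrc41 may not have been separated. Gm42715 is not a row of the counts table used here.

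Promoter windows are given for 3 members that differ in response. These are Ino80 (the largest fall in ko among the 8 genes), Hells (the most abundant) and Rad54l (not called). For each, a RefSeq transcript start inside the gene span given above was used, which for Hells is not an exon start in GENCODE. The 250 bases before the start are shown. They are given 5′ to 3′ on the gene's strand, from RefSeq on GRCm38.p6, with capitals marking a motif that a script found on either strand: CCAAT in Ino80 and Rad54l, and the E2F motif TTTCCCGC in Hells. The windows are chr2:119477688-119477937 (minus strand), chr19:38930740-38930989 (plus strand) and chr4:116123691-116123940 (minus strand).
Ino80: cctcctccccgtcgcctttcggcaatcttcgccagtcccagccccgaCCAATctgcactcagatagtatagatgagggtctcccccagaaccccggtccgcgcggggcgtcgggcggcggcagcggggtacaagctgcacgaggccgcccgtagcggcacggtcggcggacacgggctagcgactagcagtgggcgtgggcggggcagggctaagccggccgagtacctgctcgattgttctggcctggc
Hells: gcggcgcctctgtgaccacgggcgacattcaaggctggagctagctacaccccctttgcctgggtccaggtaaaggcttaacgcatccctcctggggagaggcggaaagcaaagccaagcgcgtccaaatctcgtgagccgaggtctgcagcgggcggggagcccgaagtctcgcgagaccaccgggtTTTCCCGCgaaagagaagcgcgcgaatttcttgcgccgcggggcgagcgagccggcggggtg
Rad54l: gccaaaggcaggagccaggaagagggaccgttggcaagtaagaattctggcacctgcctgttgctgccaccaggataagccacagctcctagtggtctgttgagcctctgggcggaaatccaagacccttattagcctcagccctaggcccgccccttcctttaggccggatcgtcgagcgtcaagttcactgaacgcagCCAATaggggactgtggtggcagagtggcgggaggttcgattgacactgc
The CCAAT of Ino80 begins 203 bases and that of Rad54l 50 bases before the start, and the E2F motif of Hells begins 62 bases before it. Of 32817 mouse promoter windows of this length, 33.8% hold CCAAT and 0.893% hold TTTCCCGC. The window of Atrx, not shown, holds CCAAT at 3 places (245, 64 and 33 bases before the start). The other motifs searched, TTTGGCGC (a second E2F form), ATGGCGGC (YY1), GGGGCGGGG (GC box) and the NRF1, CTCF core and REST motifs, had no match in the windows of the 8 genes, and the windows of Srcap, Ep400, Smarcad1 and Ercc6 had no match to any motif. In the 3 windows shown, 69.2% of the bases of Ino80, 65.6% of Hells and 58.4% of Rad54l are G or C, with 28, 28 and 10 CpG sites, against medians of 52.4% and 6 sites over all windows. A match describes letters and not a bound site.

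Per kilobase of exon, Hells was the most abundant of the 8 transcripts in every group. In wild type its level was 176 ± 23.9 RPKM (CPM per exonic kilobase, SD, n = 8), followed by Smarcad1 at 47.2 ± 8.87, Atrx at 33.3 ± 4.10, Ino80 at 19.3 ± 1.20, Ep400 at 16.4 ± 0.717, Srcap at 14.2 ± 1.85, Rad54l at 14.1 ± 1.53 and Ercc6 at 6.91 ± 0.534. The libraries of Hells did not overlap those of Smarcad1, nor those of Atrx with Ino80 or of Rad54l with Ercc6. The other neighbours in this order (Smarcad1 and Atrx, Ino80 and Ep400, Ep400 and Srcap, Srcap and Rad54l) overlapped. Hells stood at percentile 97.8 of the tested genes and Ercc6 at percentile 50.7. In ko, Ino80 moved from the fourth to the sixth place with 10.6 ± 0.822 RPKM (SD, n = 5), below Ep400 at 14.2 ± 0.779 and Rad54l at 13.9 ± 0.870, and its libraries did not overlap those of either. The wild-type add-back had the order of wild type, with Ino80 at 18.8 ± 1.40 RPKM (SD, n = 3). In the mutant add-back, Rad54l at 13.6 ± 0.0240 RPKM (SD, n = 2) ranked above Ep400 at 10.5 ± 3.07, Ino80 at 9.64 ± 2.19 and Srcap at 7.41 ± 1.40. Long genes read low in mutant add-back replicate 1 (described below). All ranks use the deposited exonic lengths. The GENCODE annotation gives 7205 bases against 3019 for Hells, 13322 against 5464 for Smarcad1 and 21757 against 13079 for Atrx. It gives 7706 against 4894 for Rad54l, 13971 against 12344 for Ep400 and 6803 against 6296 for Ino80. Ranks and overlaps between genes may therefore differ with the gene models.

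**Figure D1:**
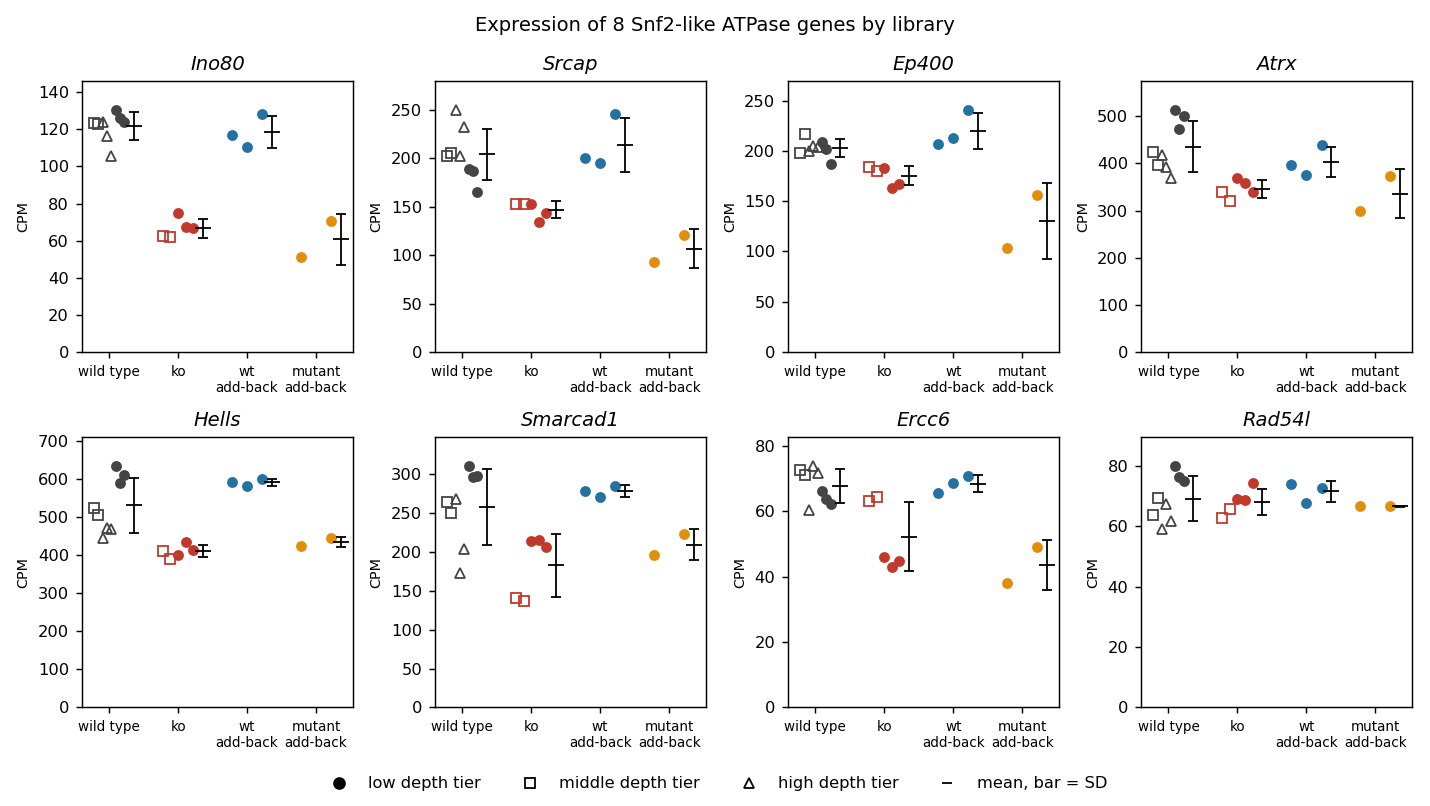
Normalised read counts in CPM (vertical axes, linear from 0) of the 8 ATPase genes in each of the 18 libraries by group, with symbols for the depth tier and a bar for the mean and SD. The ko and mutant add-back libraries of Ino80, at 51.0 to 74.8 CPM, lie below all wild-type and wild-type add-back libraries, whereas those of Rad54l overlap.

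Loss of Snf2h went with lower RNA for 7 of the 8 genes, and return of wild-type Snf2h with higher RNA for 6. In ko against wild type, Ino80, Srcap, Ep400, Atrx, Hells, Smarcad1 and Ercc6 were lower and Rad54l was not called. Among the 7, Ino80 fell by 45.1% and Ep400 fell by 13.4%, the largest and the smallest change. Of all 14901 tested genes 28.2% were called lower and 26.8% higher in this comparison (edgeR quasi-likelihood test, adjusted p under 0.05 after Benjamini-Hochberg adjustment over all tested genes), and the median log2 change was -0.37 over the 8 genes and -0.01 over all genes. Libraries of the groups did not overlap for Ino80, Srcap, Ep400 and Hells, as they did not, in this direction, for 15.4% of all genes. In a fit of all libraries, 6 of the 8 genes were called lower within the low tier (30.8% of all genes) and 5 within the middle tier (31.9%). Ep400 and Rad54l were not called in either tier of that fit. The middle-tier libraries fitted alone gave 7 genes lower, including Ep400 and Ercc6. In that fit 11083 of 14742 genes were called in either direction.

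In the wild-type add-back versus ko, Ino80, Srcap, Ep400, Hells, Smarcad1 and Ercc6 were called higher, against 22.5% of all genes higher and 22.4% lower. Libraries of the groups did not overlap for 7 genes, Rad54l being the exception, as they did not, in this direction, for 28.5% of all genes. The wild-type add-back versus wild type gave 0 calls among the 8 genes, against 1.60% of all genes, with differences from -0.11 to 0.15 on the log2 scale, 0 of them at an unadjusted p under 0.05, and DESeq2 also called 0. The mutant add-back versus ko gave 0 calls as well, against 0.322% of all genes, although Srcap and Ep400 had an unadjusted p under 0.05, their libraries lying below all ko libraries (14.3% of all genes did so), and DESeq2 called 1 of the 8, Ep400. The wild-type add-back exceeded the mutant add-back for Ino80, Srcap, Ep400, Hells and Ercc6, 5 of the 8 genes, against 18.6% of all genes. Its libraries lay above those of the mutant add-back for all 8 genes, against 36.1% of all genes. The share of genes called higher here rose with exonic length. It was 9.27% under 2 kb, 28.8% for 5 to 10 kb and 41.3% over 10 kb. Smarca5 itself was 0.56 higher on the log2 scale in the wild-type than in the mutant add-back (adjusted p = 0.018). The level of the returned Snf2h and its mutation therefore cannot be told apart between the add-backs. The mutant add-back versus wild type was lower for 6 genes (Ino80, Srcap, Ep400, Atrx, Hells and Ercc6), against 23.5% of all genes. These comparisons share libraries and are not independent of each other.

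With the 11 low-tier libraries alone, the tier that holds all add-backs, ko against wild type gave 7 genes lower (34.2% of all genes), including Rad54l but not Ep400. On the same libraries the wild-type add-back versus ko gave 7 genes higher (33.1%), the mutant add-back versus ko 1 lower (12.5%), wild-type against mutant add-back 7 higher (33.4%), wild-type add-back versus wild type 1 lower (17.0%) and mutant add-back versus wild type 8 lower (33.2%).

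**Figure D2:**
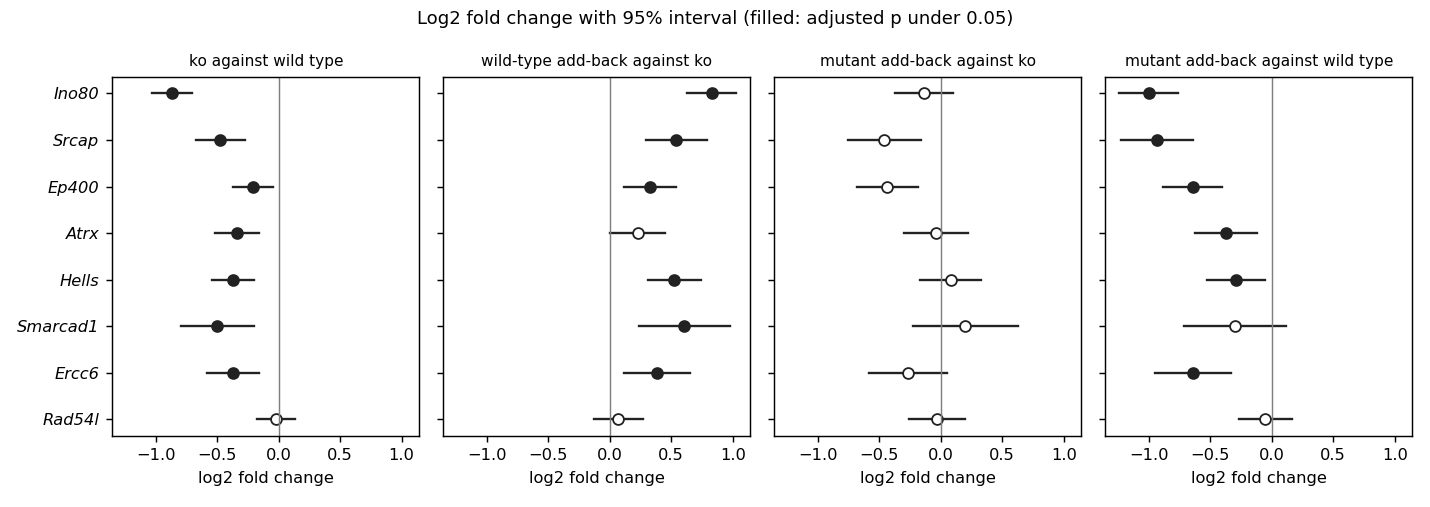
Log2 fold change (horizontal axes) with its 95% interval for each gene in 4 comparisons, filled where the adjusted p was under 0.05. Ino80 lies farthest from 0 in ko against wild type (-0.87) and in the wild-type add-back versus ko (0.83), and no point is filled for the mutant add-back versus ko.

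Ino80, the ATPase of the INO80 complex, was read at 106 to 130.4 CPM in wild type (median 123) and at 62.5, 61.9, 74.8, 67.3 and 67.1 CPM in ko replicates 1 to 5. The wild-type add-back libraries gave 117, 111 and 128 CPM, and the mutant add-back libraries 51.0 and 70.5 CPM. Every ko and mutant add-back library was below every wild-type and wild-type add-back library. The log2 change was -0.87 in ko against wild type (SE 0.08, adjusted p = 4.1e-08) and 0.83 after return of wild-type Snf2h, compared with ko (SE 0.10, adjusted p = 1.8e-06). It was -0.86 within the low tier and -0.98 within the middle tier, and the difference between tiers was not called (0.12, adjusted p = 0.56). The wild-type add-back exceeded the mutant add-back by 0.96 on the log2 scale (adjusted p = 1.3e-05), while the mutant add-back differed from ko by -0.14 (95% interval -0.37 to 0.10, adjusted p = 0.57). When libraries were summed per group and tier, Ino80 was the only one of the 8 genes still called in ko against wild type. Of 16062 genes tested in that setting, 2408 were called.

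Of 11 other subunits of the INO80 complex, 7 were called lower and 1 higher in ko than in wild type (median -0.22), and 5 were called higher and 0 lower in the wild-type add-back than in ko. These and the later list counts stand beside 28.2% of all genes lower and 26.8% higher in ko, and 22.5% higher and 22.4% lower in the wild-type add-back. Ino80e, a subunit of the complex, averaged 84.2 CPM in wild type, 54.8 in ko and 81.7 in the wild-type add-back (ko against wild type -0.62, adjusted p = 5.1e-04). Nfrkb, another subunit, fell by 0.35 (adjusted p = 5.8e-04), and Yy1, a zinc-finger transcription factor that joins the complex, fell by 0.28 (adjusted p = 0.0018). Actr5, an actin-related subunit, was the 1 gene called higher, at 0.24 (adjusted p = 0.014). Of 6 subunits that SRCAP and TIP60-EP400 have in common, some of them also in INO80, 2 were called lower in ko: Ruvbl1, an AAA ATPase, at -0.32 (adjusted p = 0.011), and Yeats4, a reader of acylated histones, at -0.15 (adjusted p = 0.049). Both, and Actl6a, an actin-related protein, were called higher in the wild-type add-back than in ko (0.59, 0.24 and 0.46). Ruvbl2, the partner of Ruvbl1, was at 426 CPM in wild type and 427 in ko (0.00, adjusted p = 0.96).

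Srcap, the ATPase that deposits H2A.Z in the SRCAP complex, was read at 165 to 250.1 CPM in wild type (median 203) and at 153, 153, 153, 134 and 143 CPM in ko replicates 1 to 5. The wild-type add-back libraries gave 201, 195 and 246 CPM and the mutant add-back libraries 92.6 and 121 CPM. Ko libraries were all below wild type, and mutant add-back libraries were all below ko. The log2 change was -0.48 in ko (SE 0.10, adjusted p = 3.7e-04), -0.33 and -0.42 within the low and the middle tier, and 0.54 in the wild-type add-back versus ko (adjusted p = 0.0012). Wild-type and mutant add-back differed by 1.0 (SE 0.16, adjusted p = 7.4e-05), and the mutant add-back was 0.46 below ko on the log2 scale with an adjusted p of 0.17; the low-tier libraries alone gave -0.42 with an adjusted p of 0.027, and removal of the length trend described below gave -0.15 with an adjusted p of 0.70. Of 3 SRCAP-specific partners, Znhit1, a zinc-finger subunit, was called lower in ko (-0.34, adjusted p = 0.044), Actr6 and Cfdp1 were not called, and 0 of the 3 were called in the wild-type add-back versus ko.

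Ep400, the ATPase of the TIP60-EP400 complex, was read at 187 to 217 CPM in wild type (median 203) and at 184, 180.4, 183, 163 and 167 CPM in ko replicates 1 to 5. The wild-type add-back gave 207, 213 and 241 CPM, the mutant add-back 103 and 157 CPM. Groups did not overlap in ko against wild type, but the highest ko and the lowest wild-type library differed by little. The log2 change was -0.21 in ko (SE 0.08, adjusted p = 0.031). In the fit of all libraries it was not called in the low tier (-0.22, adjusted p = 0.066) or the middle tier (-0.19, adjusted p = 0.19). Without ko replicate 3 the low tier gave -0.28 with an adjusted p of 0.042. Fitted alone, the low tier gave -0.22 (adjusted p = 0.13) and the middle tier -0.16 (adjusted p = 0.0015). The call over all libraries was lost without wild type replicate 2 (-0.19, adjusted p = 0.054), without ko replicate 4 (-0.18, adjusted p = 0.09) or without ko replicate 5 (-0.18, adjusted p = 0.082). It was also lost without the 3 deep wild-type libraries (-0.21, adjusted p = 0.064). The wild-type add-back exceeded ko by 0.33 (adjusted p = 0.012; 0.26 without its replicate 3, adjusted p = 0.082) and the mutant add-back by 0.76 (adjusted p = 1.6e-04). The mutant add-back was 0.43 below ko with an adjusted p of 0.13, and -0.78 with an adjusted p of 0.0057 when its replicate 3 was left out and replicate 1, at 103 CPM, stood alone. Replicate 1 is the library with the lowest level of long genes (below), and with the length trend removed the difference from ko was -0.17 (adjusted p = 0.57).

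Of 11 partners of EP400 in the TIP60 complex, 6 were called lower and 0 higher in ko (median -0.21), and 4 were called higher in the wild-type add-back than in ko. Epc2, an enhancer-of-polycomb scaffold, fell by 0.60 (50.1 to 33.2 CPM, adjusted p = 4.1e-06). Mbtd1, a reader of methylated histones, fell by 0.56 (178 to 121 CPM, adjusted p = 5.8e-05) and was 0.72 higher in the wild-type add-back than in ko (adjusted p = 6.8e-05). Mrgbp, a small subunit, fell by 0.50 (adjusted p = 4.7e-04). The acetyltransferase gene Kat5 itself was at 57.2 CPM in wild type and 52.8 in ko (-0.12, adjusted p = 0.17). Among the substrates, H2afv, which encodes one H2A.Z protein, rose by 0.44 in ko (87.7 to 119 CPM, adjusted p = 4.4e-04) and was 0.45 lower in the wild-type add-back than in ko (adjusted p = 0.0042). H2afz, the other H2A.Z gene, was not called (265 and 294 CPM, adjusted p = 0.56; processed copies of the gene may share its reads), and Anp32e, the chaperone that removes H2A.Z, fell by 0.26 (adjusted p = 0.0063).

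Atrx, the H3.3-loading ATPase, was read at 368 to 513 CPM in wild type (median 421), with the 3 low-tier libraries at 473 to 513 and the other 5 at 368 to 425. Ko replicates 1 to 5 gave 339, 319, 369, 358 and 339 CPM, the wild-type add-back 397, 376 and 438 CPM, and the mutant add-back 299 and 373 CPM. One ko library lay just above the lowest wild-type library, and within each tier the groups did not overlap. The log2 change in ko was -0.34 (SE 0.09, adjusted p = 0.0026), -0.48 in the low tier (adjusted p = 1.5e-05) and -0.32 in the middle tier (adjusted p = 0.005; -0.27 with an adjusted p of 0.054 without wild type replicate 1, and -0.27 with an adjusted p of 0.058 without ko replicate 2). In wild type alone, the low tier exceeded the middle tier by 0.27 (adjusted p = 0.014; 0.22 with an adjusted p of 0.14 without wild type replicate 2). The wild-type add-back was 0.23 above ko and was not called (95% interval 0.00 to 0.45, adjusted p = 0.093), and with the low-tier libraries alone it was 0.19 above ko (adjusted p = 0.032) and 0.29 below wild type on the log2 scale (adjusted p = 0.005). The mutant add-back differed from wild type by -0.38 (adjusted p = 0.016), and by -0.23 (adjusted p = 0.29) without its replicate 1.

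Of 9 genes for ATRX partners and H3.3 deposition, 4 were called lower and 1 higher in ko (median -0.13). Hira, the scaffold of the other H3.3 deposition complex, moved most, from 156 to 85.0 CPM (-0.88, adjusted p = 3.8e-07), and stood at 159 CPM in the wild-type add-back and 86.2 CPM in the mutant add-back. Daxx, the chaperone that works with ATRX, was at 108 CPM in wild type and 85.5 in ko (-0.34, adjusted p = 0.035), and at 109 CPM in the wild-type add-back (0.35 against ko, adjusted p = 0.097). H3f3a, an H3.3 gene with near-identical copies among which reads may have been split, was called lower (-0.39, adjusted p = 0.015), and Ubn1, a HIRA partner, was called higher (0.30, adjusted p = 0.019).

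Hells, the DNA methylation remodeller, was read at 445 to 635 CPM in wild type (median 515), with low-tier libraries at 590 to 635 and the others at 445 to 523. Ko replicates 1 to 5 gave 412, 391, 401, 434 and 414 CPM, the wild-type add-back 591, 581 and 600.5 CPM, and the mutant add-back 424 and 444 CPM. All ko libraries were below all wild-type libraries, and the mutant add-back libraries lay between the ko and the wild-type add-back libraries or among those of ko. The log2 change was -0.37 in ko (SE 0.08, adjusted p = 8.2e-04), -0.56 in the low tier (adjusted p = 1.7e-08), -0.36 in the middle tier (adjusted p = 6.2e-05) and 0.53 in the wild-type add-back versus ko (adjusted p = 4.1e-04). Wild type of the low tier exceeded wild type of the middle tier by 0.25 (adjusted p = 0.002). The wild-type add-back exceeded the mutant add-back by 0.44 (adjusted p = 0.013), and by 0.43 (adjusted p = 0.09) without mutant add-back replicate 1. The mutant add-back differed from ko by 0.08 (95% interval -0.17 to 0.33). Its difference from wild type, -0.29 (adjusted p = 0.045), was not called without wild type replicate 1, 6, 7 or 8 or without either mutant add-back library (-0.33 to -0.25, adjusted p 0.053 to 0.24), and was -0.50 (adjusted p = 7.8e-08) with the low-tier libraries alone.

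Of 8 genes for HELLS partners and DNA methylation, 6 were called lower and 0 higher in ko (median -0.39), and 5 were called higher in the wild-type add-back than in ko. Cdca7l, a relative of the HELLS activator, averaged 52.0 CPM in wild type, 27.2 in ko, 53.2 in the wild-type add-back and 23.4 in the mutant add-back (ko against wild type -0.94, adjusted p = 3.0e-08). The de novo methyltransferase gene Dnmt3a fell from 199 to 75.5 CPM (-1.40, adjusted p = 1.5e-05), and its cofactor gene Dnmt3l from 263 to 111 CPM (-1.25, adjusted p = 2.0e-05). Dnmt3l stood at 254 CPM in the wild-type add-back and at 223 CPM in the mutant add-back. Beside Hells, which is abundant in dividing cells, 13 of 26 genes of S phase and proliferation were called lower and 4 higher in ko (median -0.22), and 11 were called higher and 2 lower in the wild-type add-back than in ko. Pole, a replicative polymerase subunit, fell by 0.59 (adjusted p = 1.5e-06) and Mcm3, a subunit of the replicative helicase, fell by 0.38 (adjusted p = 1.1e-04), while Aurkb, a mitotic kinase, rose by 0.46 (adjusted p = 1.2e-07). The summed level of that list was 7996 to 8859 CPM in wild type, 7008 to 8085 in ko, 8286 to 8632 in the wild-type add-back, and 7611 and 7624 in the mutant add-back. The part of cell division in the level of Hells was not tested.

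Smarcad1, the TRIM28-associated ATPase, was the member that varied most among wild-type libraries, from 172 to 311 CPM (median 266, coefficient of variation 18.8%). Low-tier wild type gave 297 to 311 CPM and the deep libraries 268, 172 and 204 CPM. Ko replicates 1 and 2, of the middle tier, gave 141 and 136 CPM and ko replicates 3 to 5, of the low tier, 214, 216 and 207 CPM, while the wild-type add-back gave 278, 271 and 285 CPM and the mutant add-back 196 and 223 CPM. Groups overlapped over all libraries but not within a tier. The log2 change in ko was -0.50 (SE 0.14, adjusted p = 0.0061), -0.51 in the low tier (adjusted p = 2.4e-04) and -0.89 in the middle tier (adjusted p = 4.3e-06), with a difference of 0.38 between tiers that was not called (adjusted p = 0.086). The wild-type add-back exceeded ko by 0.61 (adjusted p = 0.0092), and by 0.39 with the low-tier libraries alone (adjusted p = 1.4e-06). In the low tier alone the mutant add-back differed from ko by -0.02 (95% interval -0.14 to 0.10) and from wild type by -0.53 (adjusted p = 1.7e-07), against -0.30 (adjusted p = 0.23) over all libraries and -0.44 (adjusted p = 0.042) without the 3 deep wild-type libraries. Of 9 genes for SMARCAD1 partners and H3K9 methylation, 5 were called lower and 0 higher in ko (median -0.28). Cbx1, a heterochromatin protein, fell by 0.69 (157 to 96.9 CPM, adjusted p = 4.6e-08) and was 0.75 higher in the wild-type add-back than in ko (adjusted p = 5.7e-07). Ehmt1 fell by 0.28 (adjusted p = 1.2e-04) and Setdb1 by 0.43 (adjusted p = 2.1e-04), both genes for H3K9 methyltransferases. Trim28 was at 2369 CPM in wild type and 1964 in ko (-0.27, adjusted p = 0.15).

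Ercc6, the transcription-coupled repair ATPase, was read at 60.5 to 74.0 CPM in wild type (median 68.7). Ko replicates 1 and 2 gave 63.1 and 64.3 CPM and ko replicates 3 to 5 gave 46.2, 43.1 and 44.8 CPM. The wild-type add-back gave 65.7, 68.8 and 71.0 CPM and the mutant add-back 38.1 and 49.1 CPM. Ko libraries of the low tier were below all wild-type libraries, and those of the middle tier were below wild type of the same tier but overlapped other wild-type libraries. The log2 change in ko was -0.37 (SE 0.10, adjusted p = 0.0046), -0.52 in the low tier (adjusted p = 1.6e-05) and -0.18 in the middle tier (adjusted p = 0.12). Fitted alone, the low tier gave -0.52 (adjusted p = 3.2e-06) and the middle tier -0.15 (adjusted p = 0.006). The difference between tiers, -0.35, had an adjusted p of 0.048, and Ercc6 was the 1 member called there, against 26.8% of all genes. That call was lost in 9 of 10 fits that left out 1 library of the low or middle tier (wild type 1, 2, 6, 7 or 8, or ko 1, 2, 4 or 5; -0.37 to -0.32, adjusted p 0.061 to 0.13). The wild-type add-back exceeded ko by 0.39 (adjusted p = 0.02), which was not called without ko replicate 3, 4 or 5 or without wild-type add-back replicate 2 or 3 (0.32 to 0.38, adjusted p 0.053 to 0.07), and by 0.62 with the low-tier libraries alone (adjusted p = 4.1e-07). Wild-type and mutant add-back differed by 0.65 (adjusted p = 0.0049), and by 0.50 (adjusted p = 0.11) without mutant add-back replicate 1. The mutant add-back differed from wild type by -0.64 (adjusted p = 0.0018), or by -0.47 without its replicate 1 (adjusted p = 0.092). Of 12 genes of transcription-coupled repair, 4 were called lower and 0 higher in ko (median -0.13), next to 28.2% of all genes lower. Usp7, a deubiquitinase that protects ERCC6, fell by 0.36 (adjusted p = 7.2e-04), Ercc4, an excision nuclease gene, fell by 0.50 (adjusted p = 0.0019), and Tcea1, an elongation factor gene, fell by 0.28 (adjusted p = 0.0082). Ercc8 (CSA), the other Cockayne syndrome gene, was at 23.1 CPM in wild type and 24.2 in ko (0.07, adjusted p = 0.60).

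Rad54l, the recombination ATPase, was read at 59.0 to 80.0 CPM in wild type (median 68.4) and at 62.7, 65.7, 69.1, 68.8 and 74.1 CPM in ko replicates 1 to 5. The wild-type add-back gave 74.1, 67.6 and 72.7 CPM and the mutant add-back 66.7 and 66.5 CPM. Libraries of the 4 groups overlapped, apart from those of the 2 add-backs. The log2 change in ko was -0.02 (95% interval -0.17 to 0.14, adjusted p = 0.84), and return of wild-type Snf2h went with a difference of 0.07 from ko (95% interval -0.13 to 0.27, adjusted p = 0.57). Low-tier wild type exceeded middle-tier wild type by 0.21 (adjusted p = 0.019), which was not called without wild type replicate 1 (0.15, adjusted p = 0.21) or 6 (0.18, adjusted p = 0.07), and with Atrx and Hells it was 1 of 3 members called higher there, against 21.9% of all genes. With the low-tier libraries alone the difference was -0.13 in ko (adjusted p = 0.04, against 0.089 for the low tier in the fit of all libraries) and -0.21 in the mutant add-back versus wild type (adjusted p = 0.004). Of 16 genes of homologous recombination, 4 were called lower and 1 higher in ko (median -0.04), next to 28.2% of all genes lower and 26.8% higher. In the wild-type add-back versus ko, 3 were called higher and 1 lower, next to 22.5% of all genes higher and 22.4% lower. Brca2, a tumour suppressor gene of this pathway, fell by 0.76 (158 to 93.5 CPM, adjusted p = 1.3e-06) and stood at 180.0 CPM in the wild-type add-back and 75.7 CPM in the mutant add-back. Rad52, an annealing factor, fell by 0.66 (adjusted p = 1.8e-05).

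Of 10 further Snf2-like ATPases of these classes, 4 were called lower and 1 higher in ko (median -0.18, 28.2% of all genes lower), and 6 were called higher and 0 lower in the wild-type add-back than in ko (22.5% of all genes higher). Ercc6l2, a relative of Ercc6, fell by 0.35 (98.5 to 77.5 CPM, adjusted p = 9.6e-04), Zranb3, an annealing helicase, fell by 0.27 (adjusted p = 0.0038), and Rad54l2, an ATPase related to ATRX and RAD54, fell by 0.23 (adjusted p = 0.0051). Rad54b, the closest relative of Rad54l, was at 62.4 CPM in wild type and 68.4 in ko (0.13, adjusted p = 0.23).

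**Figure D3:**
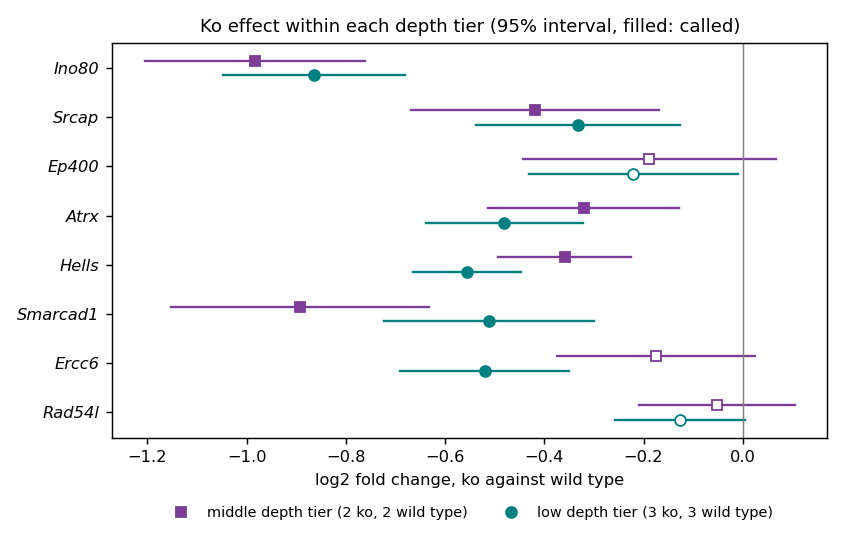
Log2 fold change of ko against wild type (horizontal axis) with its 95% interval for each gene within the middle tier (squares) and the low tier (circles), filled where the adjusted p was under 0.05. All 16 values are below 0, from -0.98 to -0.05. The quasi-likelihood test called a difference between tiers for Ercc6 alone (-0.18 and -0.52, adjusted p = 0.048). That call was lost in most fits that left out 1 library. Smarcad1 differed by 0.38 (adjusted p = 0.086) and Hells by -0.20 (adjusted p = 0.085), not called.

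**Figure D4:**
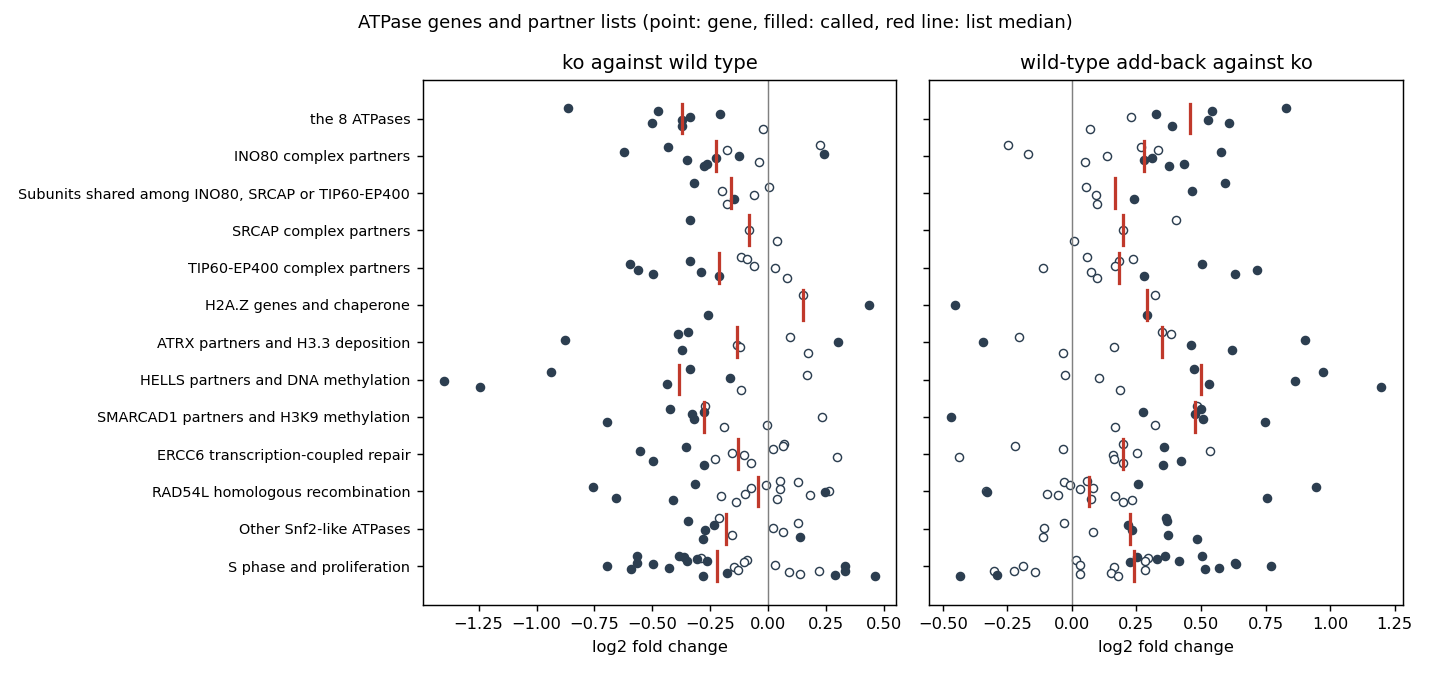
Log2 fold change (horizontal axes) of each gene of the 12 partner lists and the 8 ATPases in ko against wild type and in the wild-type add-back versus ko, filled where called, with a red line at each list's median. The medians over the 8 ATPases are -0.37 and 0.46, and Hira, Cdca7l, Dnmt3a and Dnmt3l lie lowest in ko in their lists.

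Over the 18 libraries the members' log2 CPM went together in part. Pearson's r was 0.91 for Srcap and Ep400, 0.86 for Ino80 and Atrx, and 0.85 for Ino80 and Srcap. It was 0.26 for Ino80 and Rad54l and -0.06 for Srcap and Rad54l. Low values were not limited to Rad54l, with 0.21 for Smarcad1 and Ercc6 and 0.38 for Ep400 and Smarcad1. Over the 11 low-tier libraries these low values were higher, 0.69 for Ino80 and Rad54l and 0.58 for Srcap and Rad54l. There Smarcad1 and Ercc6 stood at 0.94 and Ep400 and Smarcad1 at 0.78. The same libraries gave 0.97 for Srcap and Ep400, 0.89 for Ino80 and Atrx and 0.90 for Ino80 and Srcap. These values describe libraries that share groups and depth tiers. Among 10526 genes with a mean of at least 5 CPM, those whose pattern was most like that of a member were Tpr and Asxl1 for Ino80 (both r = 0.99), Aqr (0.98) and Prrc2c (0.97) for Srcap, and Mtor and Ep300 for Ep400 (both 0.96). They were Topors and Zdbf2 for Atrx (both 0.94), Pus7l and Trnt1 for Hells (both 0.97), Knop1 and Slc7a3 for Smarcad1 (both 0.97), Tiparp (0.97) and Igf2r (0.96) for Ercc6, and Foxo4 (0.87) and Slc25a15 (0.85) for Rad54l.

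The members differ in exonic length, and levels moved with length most in mutant add-back replicate 1. The deposited exonic lengths run from 3.02 kb for Hells to 14.4 kb for Srcap, with Atrx at 13.1 kb, Ep400 at 12.3 kb, Ercc6 at 9.82 kb, Ino80 at 6.30 kb, Smarcad1 at 5.46 kb and Rad54l at 4.89 kb. In mutant add-back replicate 1, the 581 tested genes over 10 kb lay at a median of -0.45 from their mean over the 18 libraries on the log2 scale, and the 3840 genes under 2 kb at 0.28. In its replicate 3 these medians were -0.15 and 0.10, and in the other 16 libraries the genes over 10 kb lay between -0.13 and 0.20, the highest being wild-type add-back replicate 3, whose genes under 2 kb lay at -0.05. Of the genes over 10 kb, 46.1% were called lower and 7.06% higher in the mutant add-back than in wild type (median -0.40), and 35.3% lower and 19.3% higher in ko than in wild type (median -0.10). With the trend of level on exonic length removed in each library, a setting chosen after seeing the data, the mutant add-back versus wild type changed from -0.94 to -0.53 for Srcap, from -0.64 to -0.29 for Ep400, from -0.64 to -0.34 for Ercc6 and from -1.0 to -0.84 for Ino80, and these 4 were still called. For Atrx it went from -0.38 to 0.00 (adjusted p = 0.99). Under this setting Ep400 (-0.12, adjusted p = 0.074) and Atrx (-0.25, adjusted p = 0.054) were not called in ko against wild type, whereas Ino80 was at -0.83, Smarcad1 at -0.47, Hells at -0.38, Srcap at -0.37 and Ercc6 at -0.32, all called. Wild-type against mutant add-back then gave 0.60 for Srcap, 0.43 for Ep400, 0.38 for Ercc6 and 0.83 for Ino80, also called. For Atrx this difference went from 0.26 to -0.10 and was not called. In the mutant add-back versus ko the members then ran from -0.17 to 0.30, with 0 called.

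**Figure D5:**
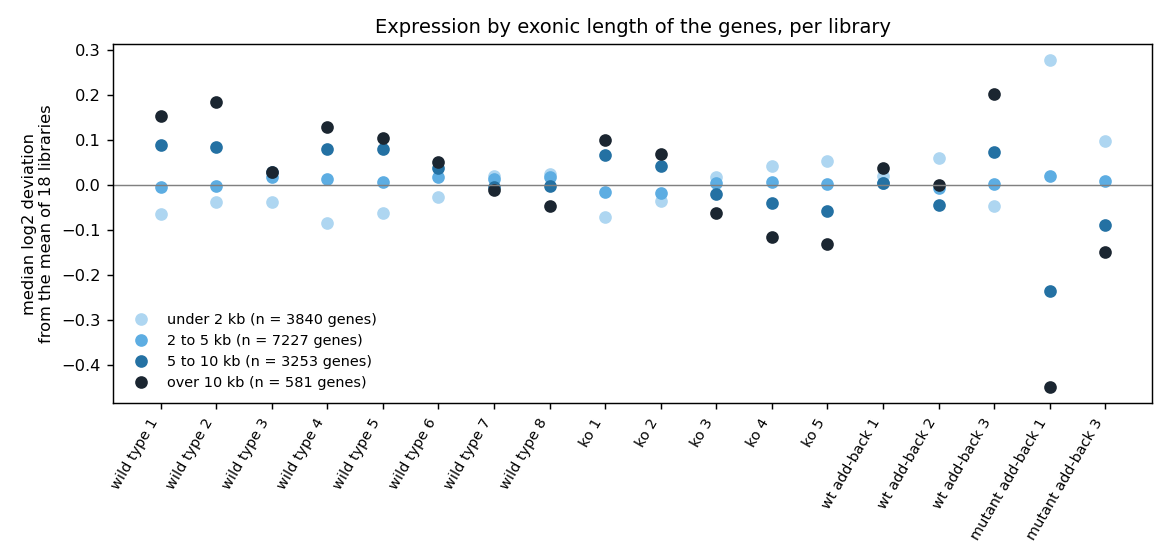
Median log2 deviation of the tested genes from their mean over 18 libraries (vertical axis) in each library (horizontal axis), for 4 classes of exonic length. In mutant add-back replicate 1 the classes spread from 0.28 for genes under 2 kb to -0.45 for genes over 10 kb, more than in any other library shown.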

How the data were processed

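The authors deposited raw counts of reads per gene for 18 libraries, with 1 column per library, none pooled, and the exonic bases of each gene. Per the labels' protocols RNA was purified on RNeasy columns and polyadenylated RNA was made into stranded TruSeq libraries; bcl2fastq 2.17, STAR and the mm10 (GRCm38) build are named in the submitters' processing notes. No source used here names the tool that counted the reads, the gene models or the use of strand. The members and the 14 gene lists were chosen with earlier results of these data known.

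Counts were normalised by TMM and tested with edgeR 4.0.16 in R 4.3.3 (robust quasi-likelihood test, two-sided, 1 mean per group over all 18 libraries). Genes needed to pass filterByExpr with a count minimum of 10, which left 14901 of 24116 genes and all 8 members. P-values were adjusted (Benjamini-Hochberg) over all tested genes of a comparison and called at 0.05. CPM used TMM-scaled totals, and log2 CPM for correlations a prior count of 2. A second fit gave each group and depth tier (totals under 20 M, 20 to 28 M, and above) its own mean. Totals of 15.3 to 37.0 M counts limit the precision of counting only, not the spread between libraries. All members and Smarca5 were named in every comparison, from each list up to 3 genes with the smallest adjusted p in ko against wild type and 1 in the wild-type add-back versus ko, and for each member the 2 genes with the highest correlation. An item that this rule would name is not reported here. Actr5, Ruvbl2, Kat5, Daxx, Trim28, Ercc8 and Rad54b were named outside this rule, after their values were seen, for their place beside a member. Exons overlapping other genes were found in GENCODE M21, and promoter windows came from RefSeq. Alternatives were DESeq2 1.42.0 or its size factors, library size alone, other filters, depth tier or replicate number as a term, summed libraries, low-tier libraries alone, and each library left out.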

Additional observations from a re-analysis of the deposited data

Results flagged for a closer look

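The effect of the ko on Ercc6 differed between libraries of the low and the middle depth tier, by -0.35 on the log2 scale (adjusted p = 0.048, edgeR's quasi-likelihood test of the difference itself), since the log2 change was -0.52 in the low tier (3 ko and 3 wild-type libraries) and -0.18 in the middle tier (2 and 2). In this test of the difference 26.8% of all genes were called. The call was lost in 9 of 10 fits that left out 1 library of these tiers (adjusted p 0.061 to 0.13) and with library size alone as the scaling (-0.34, adjusted p = 0.079). What sets the tiers apart was not tested.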

How the results depend on the processing

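Over 1248 values of single members under an alternative, 1156 stayed on their side of the threshold (called ones with their direction; the sign of values that were not called could differ), 69 were no longer called, 23 became called and 0 called values changed sign. Summing libraries per group and tier left 1 of the 8 genes called in ko against wild type, 1 in the wild-type add-back versus ko, 0 in wild-type against mutant add-back and 2 in the mutant add-back versus wild type, with fewer samples. Of 16062 genes tested in that setting, 2408, 723, 233 and 1270 were called in these comparisons, in the same order. In the wild-type add-back versus wild type, depth tier as a term gave 1 call (1532 of all 14901 genes), as did the low-tier libraries alone (4786 of 14488). In the mutant add-back versus ko, the low-tier libraries alone (3683 of 14488 genes) and DESeq2's Wald test (332 of 14901) gave 1 each. Library size alone gave 0 calls for the difference between tiers (3986 of 14901 genes) and 4 in place of 6 in the wild-type add-back versus ko (6734 of 14901). The calls lost there were Ep400 (0.26, adjusted p = 0.051) and Ercc6 (0.31, adjusted p = 0.072). Under it Ep400 in ko against wild type (-0.14, adjusted p = 0.14) and Hells in the mutant add-back versus wild type (-0.25, adjusted p = 0.07) were not called. Leaving out 1 library gave 0 to 1 calls for the difference between tiers, 0 to 1 in the mutant add-back versus ko (1 without mutant add-back replicate 3), 3 to 5 in wild-type against mutant add-back and 3 to 6 in the mutant add-back versus wild type, both lowest without mutant add-back replicate 1. Where this left 1 mutant add-back library, it was assumed to vary like the other groups. Same-numbered libraries of ko and wild type did not deviate together for all numbers (correlations -0.25 to 0.17), so the numbers were not taken to pair libraries. Between the add-backs both shared numbers correlated positively (0.07 and 0.17). The deviations of 2 mutant add-back libraries from their group mean are mirror images, so these values are not independent. They cannot settle whether the numbers pair libraries. With the replicate block the wild-type add-back versus wild type gave 1 call (Hells, 0.30, adjusted p = 0.05), with 1002 of all 14901 genes called. With this block Smarcad1 in ko against wild type (-0.35, adjusted p = 0.074), Ercc6 in the wild-type add-back versus ko (0.35, adjusted p = 0.075) and Hells in the mutant add-back versus wild type (-0.15, adjusted p = 0.22) were not called. Atrx was called in wild-type against mutant add-back (0.31, adjusted p = 0.027). Over all genes, the mutant add-back versus ko gave 48 calls, against 480 with depth tier as a term, 332 with DESeq2, 3683 with low-tier libraries alone, 2 with summed libraries, 25 without ko replicate 1, 4 without mutant add-back replicate 1 and 143 without its replicate 3. The wild-type add-back versus wild type gave 238, against 1532 with depth tier as a term, 1002 with the replicate block, 478 with DESeq2, 4786 with low-tier libraries alone, 3 with summed libraries and 51, 44 or 72 without wild-type add-back replicate 1, 2 or 3. Wild-type against mutant add-back gave 5507, against 9744 with low-tier libraries alone, 233 with summed libraries and 3014 without mutant add-back replicate 1. The mutant add-back versus wild type gave 6787, against 1270 summed and 3675 without mutant add-back replicate 1. Ko against wild type gave 8189, against 2408 summed, and return of wild-type Snf2h over ko 6702, against 723 summed. Wild type of the low against the middle tier gave 6484, against 4280 without wild type replicate 2. No scaling moved the median of all genes by more than 0.0711.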
